A study of Homo sapiens with 6 samples.

Results

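The genes described here encode the subunits of receptors for glutamate and for GABA. They were chosen by symbol: protein-coding genes named GRIA, GRIK, GRID or GRM with a digit, the NMDA receptor genes GRIN1, GRIN2A to GRIN2D, GRIN3A and GRIN3B, the GABA-A subunit genes GABRA to GABRQ without the rho genes, GABBR1 and GABBR2. This gave 44 of the 58735 genes in the table, of which 19951 were protein coding. GRIK3 was singled out within the list because of its known difference between the groups, so its values are a description with no test, and it is left out of every count of calls. The RNA-Seq data came from H1155, a human neuroendocrine large cell lung cancer line, grown without treatment in DMEM with FBS. There were 3 libraries labelled WT and 3 labelled GFI1-KO. GFI1 is a transcriptional repressor best known from blood cell development, and according to the study's methods its promoter region was targeted with CRISPR/Cas9 in the GFI1-KO cells, which were grown from single cells. The labels do not say how many clones or separate cultures the libraries came from, so p-values measure only the spread between these libraries, and the effect of the edit and of a clone's origin cannot be told apart.

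Glutamate is the main excitatory transmitter of the brain and GABA the main inhibitory one. AMPA, kainate and NMDA receptors are cation channels built from 4 subunits, delta receptors are related proteins that bind synaptic organizers, and metabotropic glutamate receptors signal through G proteins. GABA-A receptors are chloride channels of 5 subunits, most often alpha, beta and gamma, in which delta or epsilon can replace gamma. GABA-B receptors are obligate pairs of GABBR1 and GABBR2 that signal through G proteins. Neuroendocrine tumor cells share many transcripts with neurons, and receptor subunits are among them.

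Library totals lay between 14882914 and 17692882 counts, so that 3 counts, taken as the smallest level a library can show, stand for 0.17 to 0.202 CPM (counts scaled to a common library total). All 12 neuroendocrine marker genes passed the filter on low counts, 7 of them higher and 5 lower in GFI1-KO, beside 36.5% higher and 35.9% lower among all genes tested. These directions are without a correction for GC content and transcript length. With it some of the calls were lost and some higher genes turned lower. Blood markers summed to at most 0.396 CPM in any library. Of the 4 fibroblast markers tested, 1 was higher and 3 were lower, and COL3A1 went from 2, 3 and 2 counts to 129, 143 and 170 while COL1A2, which made up most of their sum, went from 2818, 2603 and 2829 to 2085, 2171 and 2103. The summed fibroblast markers went from 190.6 to 195.9 CPM in WT to 133.1 to 137.9 in GFI1-KO, with DCN at no count. The summed endothelial markers went from 27.0 to 30.4 CPM in WT to 13.3 to 14.9 in GFI1-KO. Of the 4 endothelial markers 2 passed the filter, 1 lower and 0 higher, and 1 gene made up most of their sum. The part of fibroblast or endothelial markers in the receptor values was not tested. GFI1 itself, the edited gene, had no fewer counts under the GFI1-KO label. Its counts were 153, 106 and 125 in WT and 174, 188 and 170 in GFI1-KO, giving a log2 fold change of 0.31 (edgeR, adjusted p = 0.0273), which was 0.19 and not called once GC content and transcript length were corrected for (edgeR, adjusted p = 0.19), so every direction below rests on the labels.

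Of the 44 receptor genes, 25 passed the filter on low counts and 19 did not. No count was found for GRIA1, GABRA4 or GABRA6 in any library. Of the 25 genes, 22 reached the filter's level in all 6 libraries. GABRB2 was among those that did not and reached it only in WT, so that it had to differ to be tested. Of the 24 tested genes other than GRIK3, 18 (75.0%) differed between the groups (adjusted p no higher than 0.05, edgeR quasi-likelihood test with Benjamini-Hochberg adjustment over all genes), beside 72.4% of all 17514 genes tested, so the number of calls is near the background. Genes that pass only through WT have to differ, and over the 21 genes at the filter's level in every library 16 (76.2%) were called, 7 higher and 9 lower, beside 74.9% of all such genes. Over the 24 genes, there were 7 higher genes (29.2%, against 36.5% of all genes) and 11 lower genes (45.8%, against 35.9%). Normalized counts, which are counts scaled for library depth, did not overlap between the groups for 19 of the 24 genes, 8 higher and 11 lower, where 74.4% of all genes did not overlap. The median log2 fold change of GFI1-KO over WT was -0.06 over the 24 genes and 0.00 over all genes, and the median size of the change was 0.835 against 0.48. In 10 of the 24 genes, and in 17.6% of all genes tested, the log2 fold change was at least 1 in size, and with a correction for GC content and transcript length this held for 5 of the 24 genes and 12.8% of all genes. The 24 genes include 2 that passed the filter only through WT and so had to fall. The median size and the counts of large changes were not computed without them. Bulk RNA does not tell apart fewer cells that use a gene from less RNA per cell.

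**Figure D1:**
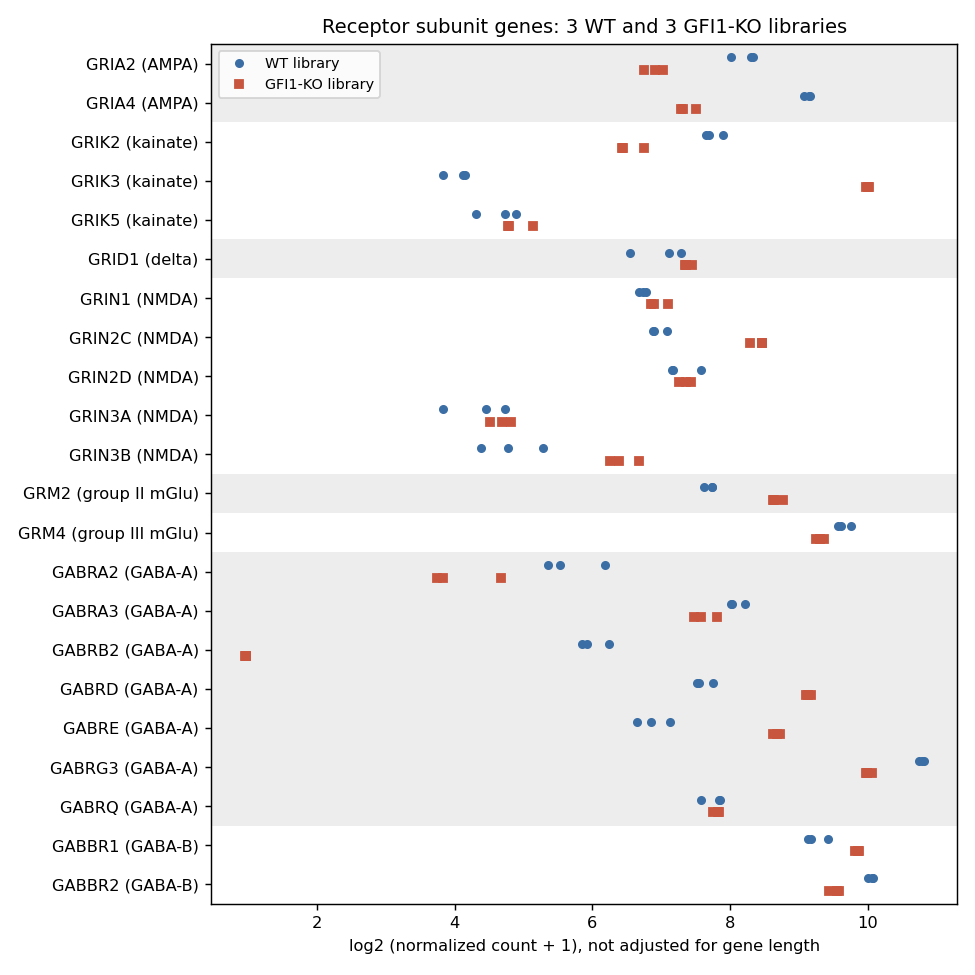
Each row is 1 of 22 receptor genes that passed the filter, with its receptor class in parentheses, and each point 1 library, on a log2 scale of normalized counts with 1 added. Circles are WT and squares GFI1-KO, with GRIK3 far to the right in GFI1-KO, GABRB2 near 0 counts in GFI1-KO, and the groups overlapping for GRIK5, GRIN2D, GRIN3A and GABRQ.

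Both AMPA receptor genes that were measurable fell. GRIA4, a channel subunit with rapid kinetics (chromosome 11, 105609994 to 105982092, GRCh38, as are all gene positions given), had 525, 509 and 543 counts in WT and 166, 163 and 191 in GFI1-KO. Every GFI1-KO library was thus far below every WT library. Its normalized count went from 557.0 ± 17.1 to 164 ± 13.7 (SD, n = 3), a log2 fold change of -1.76 (edgeR, standard error [SE] 0.083, adjusted p = 3.5e-16). With the correction for GC content and transcript length the log2 fold change of GRIA4 was -1.44 (edgeR, adjusted p = 1.83e-13). GRIA2, whose edited transcript makes AMPA channels impermeable to calcium (chromosome 4, 157204182 to 157366075), had 315, 232 and 301 counts in WT and 136, 112 and 127 in GFI1-KO, again without overlap. It fell by 1.33 on the log2 scale (edgeR, SE 0.113, adjusted p = 5.02e-11), and GRIA2 fell by 0.80 (edgeR, adjusted p = 1.14e-06) when each library was corrected for the GC content and length of transcripts. GRIA1 had no count, and GRIA3 had 1 count in each WT library and none in GFI1-KO. Levels of different genes can be compared only per length, so FPKM was computed (CPM per kilobase of the deposited gene length). All FPKM values, with their sums, shares and ratios, are without correction for GC content. The summed FPKM of the AMPA genes went from 5.37 ± 0.223 in WT to 1.79 ± 0.126 in GFI1-KO (SD, n = 3). GRIA2 made up 37.5% ± 3.29 of that sum in WT and 44.8% ± 2.78 in GFI1-KO, and the values of the libraries did not overlap.

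GRIK3, which encodes a low-affinity kainate receptor subunit (chromosome 1, 36795527 to 37034129, minus strand), was near the floor in WT and among the more abundant receptor genes in GFI1-KO. It had 16, 12 and 16 counts in WT and 1053, 1095 and 1092 in GFI1-KO. The GFI1-KO libraries were close to each other, with a normalized count of 1023 ± 17.6 (SD, n = 3), against 15.5 ± 1.92 in WT. That is a log2 fold change of 6.03 (SE 0.111), or 65.3-fold. These values are the reason that it was singled out and carry no test. Per length, GRIK3 went from 0.0926 ± 0.0115 to 6.12 ± 0.105 FPKM. GRIK2, the kainate subunit with the highest level in WT (chromosome 6, 101181257 to 102070083), moved the other way, from 195, 214 and 197 counts to 112, 91 and 91. No GFI1-KO library reached the lowest WT library, and GRIK2 fell by 1.21 on the log2 scale (edgeR, SE 0.127, adjusted p = 3.26e-09). With each library corrected for the GC content and length of its transcripts, GRIK2 fell by 0.47 (edgeR, adjusted p = 0.00262), and the log2 fold change of GRIK3 was 5.83.

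The remaining kainate genes were low. GRIK5, a high-affinity subunit that needs GRIK1, GRIK2 or GRIK3 to form a channel, had 25, 26 and 18 counts in WT and 28, 36 and 28 in GFI1-KO, and the groups overlapped once scaled for depth. Its log2 fold change was 0.25 (edgeR, SE 0.281, adjusted p = 0.429) and -0.39 with the GC and length correction (edgeR, adjusted p = 0.235). GRIK1 had 5, 12 and 1 counts in WT and 0, 2 and 2 in GFI1-KO, and GRIK4 had 4, 8 and 7 in WT and 4, 17 and 9 in GFI1-KO; neither was tested. Of the summed FPKM of the 5 kainate genes, GRIK2 held 76.4% ± 3.6 in WT and 10.2% ± 1.44 in GFI1-KO, while GRIK3 held 4.21% ± 0.984 and 83.8% ± 0.947 (SD, n = 3). The sum itself went from 2.24 ± 0.289 to 7.30 ± 0.139, and without GRIK3 from 2.15 ± 0.300 to 1.19 ± 0.0816.

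Sequence upstream of the start was compared because GFI1 binds DNA sites with the core AATC. The 250 bases before the RefSeq start (GRCh38.p14) are given for 4 genes, 1 higher and 1 lower gene with no core and 1 higher and 1 lower gene with 1 core. GRIK3 and GRIK2 are the kainate pair above, and GABRE and GABBR2 are described with the GABA receptors. Sequences run 5′ to 3′ along the gene's strand, and capitals mark AATC, or GATT where it lies on the other strand.
GRIK3 (chr1:37034516-37034765, minus strand): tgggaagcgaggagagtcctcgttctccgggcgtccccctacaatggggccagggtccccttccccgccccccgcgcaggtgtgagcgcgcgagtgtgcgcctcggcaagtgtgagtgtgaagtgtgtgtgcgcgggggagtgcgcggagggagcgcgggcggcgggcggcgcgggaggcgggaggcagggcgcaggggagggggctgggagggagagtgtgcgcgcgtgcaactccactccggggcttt
GRIK2 (chr6:101393458-101393707, plus strand): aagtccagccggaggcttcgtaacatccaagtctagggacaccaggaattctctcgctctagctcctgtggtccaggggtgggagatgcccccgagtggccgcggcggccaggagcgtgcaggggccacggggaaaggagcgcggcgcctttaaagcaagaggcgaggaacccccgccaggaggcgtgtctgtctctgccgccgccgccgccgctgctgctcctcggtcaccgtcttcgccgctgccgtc
GABRE (chrX:151974677-151974926, minus strand): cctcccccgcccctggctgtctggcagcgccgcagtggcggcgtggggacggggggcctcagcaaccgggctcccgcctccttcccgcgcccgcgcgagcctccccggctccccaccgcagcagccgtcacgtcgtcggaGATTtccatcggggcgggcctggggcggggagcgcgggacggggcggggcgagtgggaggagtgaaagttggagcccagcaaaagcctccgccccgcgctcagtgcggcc
GABBR2 (chr9:98708936-98709185, minus strand): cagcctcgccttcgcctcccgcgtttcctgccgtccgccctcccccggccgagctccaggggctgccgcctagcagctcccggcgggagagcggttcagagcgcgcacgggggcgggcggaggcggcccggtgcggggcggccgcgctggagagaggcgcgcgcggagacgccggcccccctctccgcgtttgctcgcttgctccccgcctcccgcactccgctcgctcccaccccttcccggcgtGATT
GRIK3 and GRIK2 hold no core in these windows, and their GC content is 73.6% and 68.0%. GABRE holds 1 core that starts at base 141, and GABBR2 holds 1 at base 247. Of the 44 receptor genes, 31 had an upstream window in the RefSeq table, and 19 of these (61.3%) held AATC on either strand, against 65.5% of the windows of 27305 genes. The longer motif AAATCAC, which contains the core, was in 0 of the 31 windows and in 2.67% of all windows. A match of these letters is not evidence of binding, and the counts do not show which start a transcript used.

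GRID1, a delta receptor gene (chromosome 10, 85599555 to 86366493), had 152, 124 and 88 counts in WT and 183, 170 and 173 in GFI1-KO, with replicate 3 of WT well below the rest. The log2 fold change of GRID1 was 0.37 (edgeR, SE 0.143, adjusted p = 0.0229). Without replicate 3 of WT it was 0.17 (edgeR, adjusted p = 0.237), without replicate 1 of GFI1-KO 0.34 (edgeR, adjusted p = 0.0757), with DESeq2 0.37 (adjusted p = 0.0985) and with the GC and length correction 0.16 (edgeR, adjusted p = 0.348), so the call for GRID1 was lost in each of these alternatives.

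NMDA receptors need GRIN1 together with GRIN2 or GRIN3 subunits. Without the GC and length correction, GRIN2C and GRIN3B differed among the 5 NMDA receptor genes tested, beside 72.4% of all genes. With the correction GRIN1 and GRIN2D were called as well, both lower. GRIN2C (chromosome 17, 74842023 to 74861504), which gives channels with weak magnesium block, had 131, 107 and 111 counts in WT and 368, 330 and 376 in GFI1-KO. The lowest GFI1-KO library was more than double the highest WT library. Its log2 fold change was 1.46 (edgeR, SE 0.102, adjusted p = 9.7e-13), and 1.01 with the GC and length correction. GRIN3B (chromosome 19, 1000419 to 1009732), a glycine-binding subunit known from motor neurons, rose from 37, 18 and 25 counts to 79, 107 and 88. That was a log2 fold change of 1.61 (edgeR, SE 0.225, adjusted p = 4.23e-07), which was 0.80 with the correction (edgeR, adjusted p = 0.00456).

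GRIN1, the obligate subunit (chromosome 9, 137138390 to 137168762), had 103, 92 and 104 counts in WT and 120, 144 and 126 in GFI1-KO. Its normalized counts did not overlap, from 105.5 ± 3.66 to 123 ± 11.7 (SD, n = 3), but the log2 fold change of 0.22 did not pass the test (edgeR, SE 0.135, adjusted p = 0.143) and turned to -0.38 with the GC and length correction (edgeR, adjusted p = 0.0181). GRIN2D, a subunit prominent in the developing brain, had 140, 171 and 135 counts in WT and 172, 182 and 161 in GFI1-KO, with overlapping groups. Its log2 fold change of 0.04 (edgeR, SE 0.124, adjusted p = 0.762) turned to -0.67 with the correction (edgeR, adjusted p = 3.41e-05). The transcripts of GRIN1 and GRIN2D are rich in GC, at 65.7% and 69.0%. GRIN3A had 25, 12 and 20 counts in WT and 26, 23 and 29 in GFI1-KO and did not pass the test (edgeR, adjusted p = 0.404).

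The GRIN2 genes of the forebrain, GRIN2A and GRIN2B, were scarcely counted. GRIN2A had 0, 1 and 0 counts in WT and 12, 6 and 4 in GFI1-KO, too few for the filter, with a depth-scaled ratio of 19.7 in favor of GFI1-KO (95% interval 3.18 to 812, counting error only). GRIN2B had none in WT and 3, 1 and 1 in GFI1-KO. Among the GRIN2 genes, GRIN2C held 31.9% ± 4.41 of the summed FPKM in WT and 55.0% ± 3.18 in GFI1-KO (SD, n = 3). The summed FPKM of the 7 NMDA receptor genes was 4.36 ± 0.203 in WT and 7.23 ± 0.259 in GFI1-KO, and the highest WT library at 4.48 was below the lowest GFI1-KO library at 7.07. This sum is not corrected for GC content, and with the correction GRIN1 and GRIN2D turned lower while GRIN2C and GRIN3B stayed higher. A corrected sum was not computed.

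**Figure D2:**
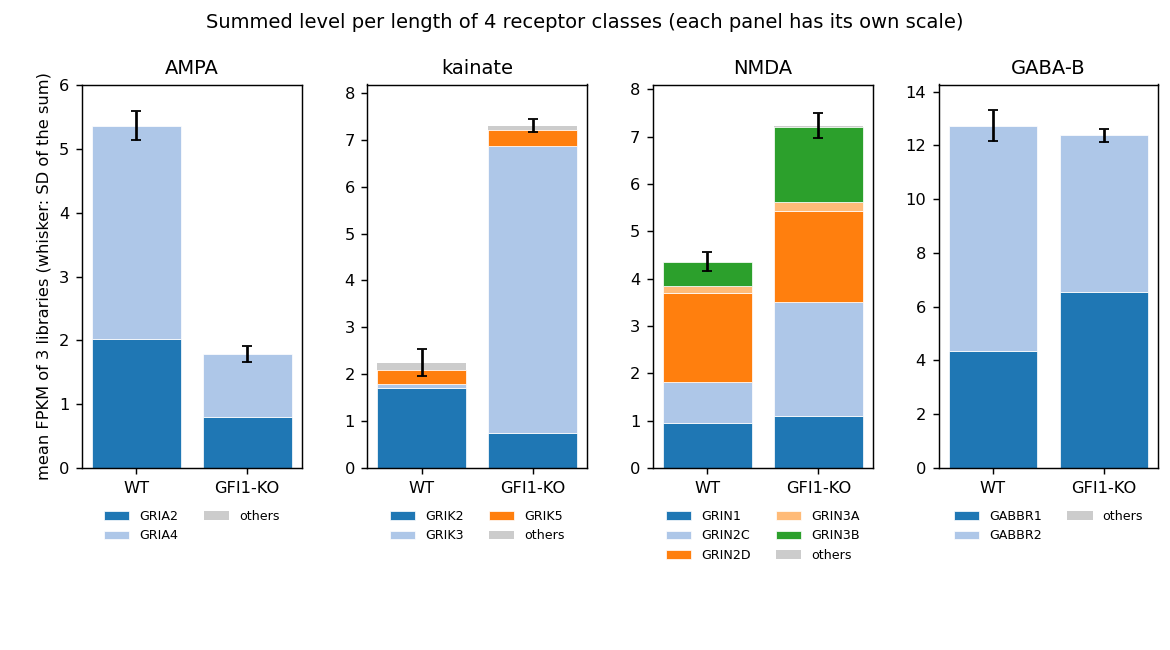
Stacked bars show the mean FPKM of 3 libraries for each gene of 4 receptor classes in WT and GFI1-KO, and whiskers the SD of the summed FPKM. The values are not corrected for GC content. Each panel has its own scale from 0, grey stands for genes with hardly any reads, and the GRIK3 segment fills most of the kainate bar of GFI1-KO while the GABA-B bars are of nearly equal height.

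Metabotropic glutamate receptors were represented by a single abundant gene in each of groups II and III. GRM2, a presynaptic receptor that lowers cAMP (chromosome 3, 51707070 to 51718613), had 207, 192 and 186 counts in WT and 414, 419 and 461 in GFI1-KO. The groups were far apart, and the log2 fold change was 0.98 (edgeR, SE 0.085, adjusted p = 7.12e-11). With the GC and length correction the log2 fold change of GRM2 was 0.73 (edgeR, adjusted p = 4.89e-08). GRM4, a group III receptor that also lowers cAMP (chromosome 6, 34018645 to 34155622), had 767, 782 and 726 counts in WT and 689, 643 and 670 in GFI1-KO. The groups did not overlap, and GRM4 fell by 0.35 on the log2 scale (edgeR, SE 0.061, adjusted p = 1.47e-05), and with the GC and length correction it fell by 0.73 (edgeR, adjusted p = 9.06e-11). Per length, GRM4 was above GRM2 in WT, at 2.98 ± 0.202 against 1.76 ± 0.0838 FPKM, and below it in GFI1-KO, at 2.35 ± 0.0877 against 3.48 ± 0.188 FPKM. GRM3, GRM5, GRM6, GRM7 and GRM8 had at most 3 counts in any library. Reads of GRM3 and GRM5 could also stem from their antisense genes, which cover 18.9% and 50.2% of their exon bases, since the strand setting of the counting is not given in the sources used here.

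Of the 16 GABA-A subunit genes, 8 were tested, and 5 fell, 2 rose and 1 did not pass, against 35.9% lower and 36.5% higher among all genes. The 5 include GABRB2, which passed the filter only through WT and so had to differ. GABRG3, a gamma subunit gene (chromosome 15, 26971282 to 27541991), had 1730, 1555 and 1711 counts in WT and 1122, 1062 and 1079 in GFI1-KO, without overlap. It fell by 0.78 on the log2 scale (edgeR, SE 0.045, adjusted p = 2.11e-14), with 8.61% of its exon bases under an antisense gene. With the GC and length correction GABRG3 fell by 0.43.

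GABRB2, a beta subunit gene (chromosome 5, 161288429 to 161549044), was almost absent from GFI1-KO. It had 58, 51 and 71 counts in WT and 1 count in each GFI1-KO library. The depth-scaled ratio was 67.1 in favor of WT (95% interval 22.59 to 328.4, counting error only), and no test is given, since it passed the filter only through WT. GABRA2, an alpha subunit gene linked to anxiety and alcohol response (chromosome 4, 46248427 to 46475230), went from 70, 36 and 43 counts to 13, 14 and 26. Its highest GFI1-KO library was below its lowest WT library, and GABRA2 fell by 1.64 on the log2 scale (edgeR, SE 0.301, adjusted p = 2.49e-05), and with the correction it fell by 0.88 (edgeR, adjusted p = 0.016). GABRA3, the most abundant alpha subunit gene here (chromosome X, 152166234 to 152451358), had 254, 269 and 246 counts in WT and 235, 187 and 202 in GFI1-KO. Its normalized counts did not overlap, and GABRA3 fell by 0.46 on the log2 scale (edgeR, SE 0.103, adjusted p = 0.000246). With the GC and length correction the log2 fold change of GABRA3 was -0.38 (edgeR, adjusted p = 0.00254).

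The genes that rose encode subunits able to replace gamma. GABRD, the delta subunit of receptors outside the synapse (chromosome 1, 2019298 to 2030758), had 210, 169 and 174 counts in WT and 609, 580 and 594 in GFI1-KO. GABRE, the epsilon subunit (chromosome X, 151953124 to 151974680), had 112, 126 and 95 counts in WT and 412, 434 and 448 in GFI1-KO. In both genes every GFI1-KO library was far above every WT library. The log2 fold change of GABRD was 1.53 (edgeR, SE 0.081, adjusted p = 3.85e-15), and 0.96 with the GC and length correction. That of GABRE was 1.79 (edgeR, SE 0.104, adjusted p = 2.3e-14), and 1.92 with the correction. GABRQ, the theta subunit (chromosome X, 152638183 to 152657534), had 226, 207 and 181 counts in WT and 240, 239 and 229 in GFI1-KO. Its groups overlapped after scaling, with a log2 fold change of 0.04 (edgeR, SE 0.1, adjusted p = 0.703).

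Per length, the GABA-A sum went from 32.6 ± 0.705 FPKM in WT to 26.7 ± 0.590 in GFI1-KO (SD, n = 3), and the libraries did not overlap. GABRG3 went from 8.46 ± 0.182 to 4.95 ± 0.163 FPKM and the alpha genes together from 4.30 ± 0.306 to 3.03 ± 0.315, whereas the delta, epsilon, pi and theta genes went from 4.99 ± 0.454 to 10.9 ± 0.124. The share of GABRD in the sum went from 6.5% ± 0.553 to 23.0% ± 0.152, and that of GABRE from 2.27% ± 0.341 to 9.65% ± 0.536. RNA levels do not show which subunits assembled into receptors.

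Most GABA-A genes lie in clusters. On chromosome 15 GABRG3 fell, and GABRA5 had 3, 8 and 8 counts in WT and 5, 8 and 10 in GFI1-KO and was not tested. On chromosome X, within 1 cluster, GABRE rose, GABRA3 fell and GABRQ did not pass the test. On chromosomes 4 and 5 only GABRA2 and GABRB2 had enough reads, and both fell. Their neighbors GABRG1, GABRA4 and GABRB1 on chromosome 4 and GABRA6 and GABRP on chromosome 5 had at most 3 counts in any library.

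**Figure D3:**
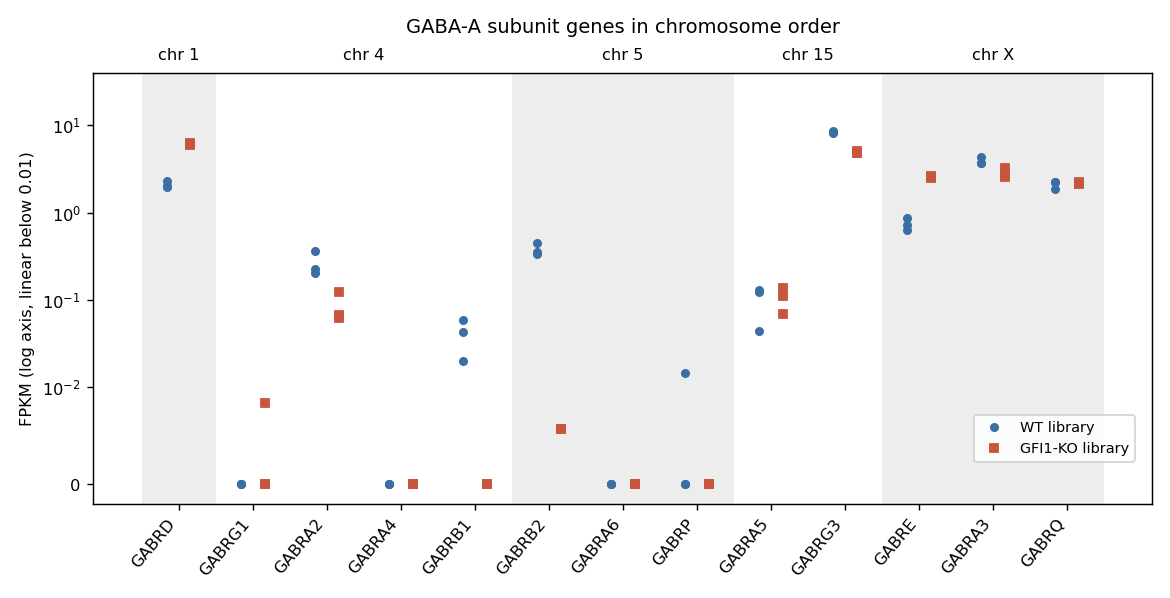
FPKM of 13 GABA-A subunit genes in each library, in order along chromosomes 1, 4, 5, 15 and X, on an axis that is logarithmic above 0.01 and linear below. Circles are WT and squares GFI1-KO, with the highest points for GABRG3 on chromosome 15 and most genes of chromosomes 4 and 5 near 0.

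The GABA-B genes moved in opposite directions. GABBR1, which binds GABA (chromosome 6, 29555629 to 29633976), had 547, 619 and 550 counts in WT and 942, 984 and 982 in GFI1-KO. GABBR2, which couples to the G protein and carries the receptor to the surface (chromosome 9, 98288082 to 98709197), had 1059, 968 and 976 counts in WT and 785, 734 and 810 in GFI1-KO. Neither gene's groups overlapped. GABBR1 rose, with a log2 fold change of 0.60 (edgeR, SE 0.065, adjusted p = 5.61e-09), and GABBR2 fell by 0.53 on the log2 scale (edgeR, SE 0.055, adjusted p = 2.36e-09). With the GC and length correction the log2 fold changes were 0.36 for GABBR1 and -0.65 for GABBR2. The ratio of GABBR1 to GABBR2 in FPKM went from 0.516 ± 0.0559 to 1.13 ± 0.0702 (SD, n = 3), while their sum was 12.7 ± 0.586 in WT and 12.4 ± 0.238 in GFI1-KO with overlapping libraries. Ratio and sum are without the GC and length correction, and whether the sum stays level with it was not tested. Part of GABBR1 (8.54% of its exon bases) overlaps UBD on the same strand, so some of its reads may belong to that gene.

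Across the whole table, fold changes moved with the GC content of transcripts, and the receptor genes did so too. Over all genes with a GC value (n = 17415) Spearman's rho was 0.574. Over the 25 receptor genes rho was 0.729 and Pearson's r 0.55, and over the 24 genes other than GRIK3 they were 0.749 and 0.617, as a description of genes that share the same 6 libraries. The 7 higher genes had a median GC content of 55.8% (48.3% to 70.3%) and the 11 lower genes 42.3% (33.7% to 60.0%). Lower genes also spanned more of the genome, with a rho of -0.708 between fold change and gene span over the 24 genes. With the GC and length correction this rho was -0.587. The rho with span was not computed over all genes, so it is not shown to be particular to the receptor genes. After each library was corrected for GC content and length, rho with GC content was 0.0167 over all genes and 0.525 over the 24 receptor genes, and 61.4% of all genes were called. Of the 24, 19 were called, 6 higher and 13 lower, and 17 had the same call and direction as without the correction. GRID1 lost its call, and GRIN1 and GRIN2D gained one, both lower. The median log2 fold change of the 24 genes was then -0.38, against 0.05 over all genes. The part of GC content in the receptor values was not tested.

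**Figure D4:**
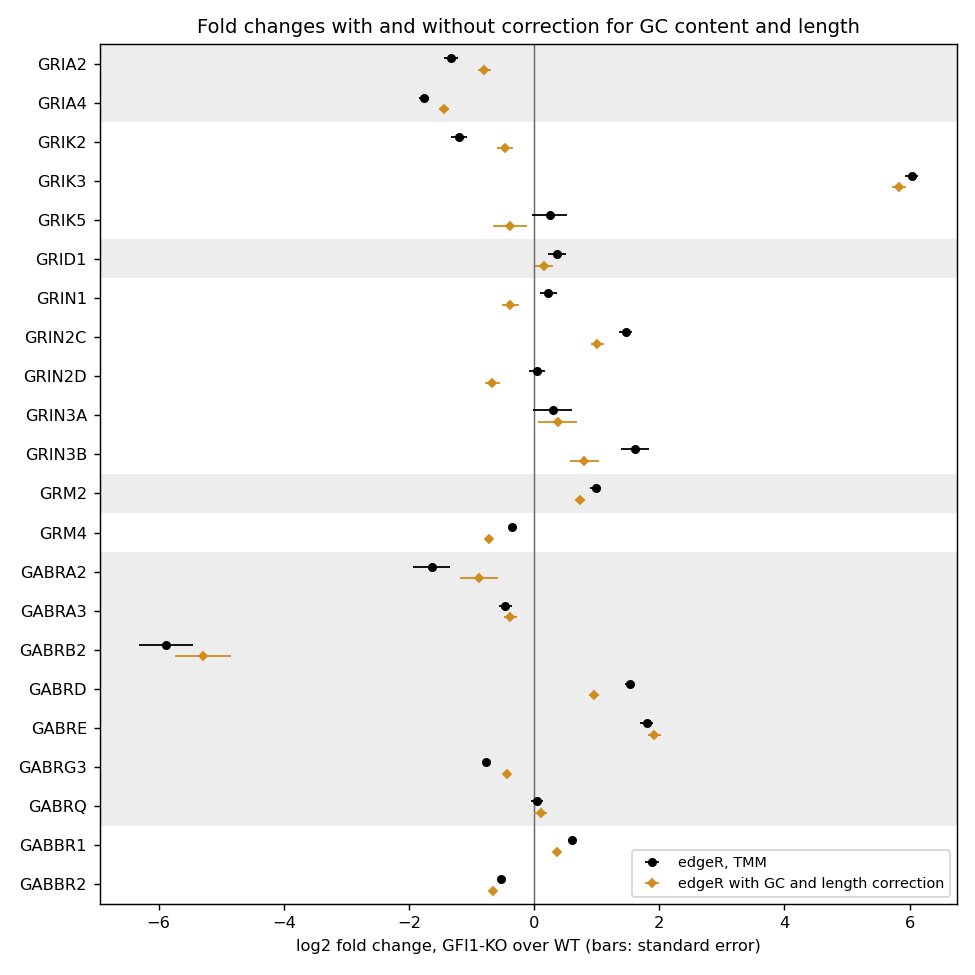
Log2 fold changes of GFI1-KO over WT with their standard errors for 22 tested receptor genes, without correction (circles) and with correction for GC content and length (diamonds). GRIK3 and GABRB2 stand far from 0 in both, while GRIK5, GRIN1 and GRIN2D cross from above to below 0.

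**Figure D5:**
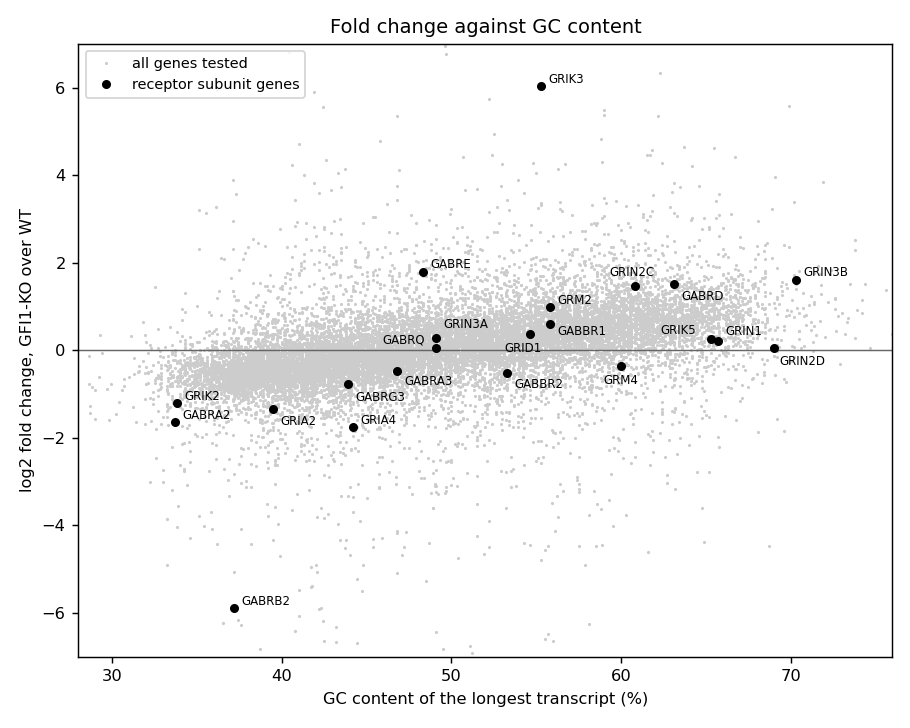
Log2 fold change against the GC content (%) of each gene's longest transcript, with all genes tested in grey and the receptor genes in black. Tested genes under 45% GC that are named here all lie below 0, and GRIN2C, GABRD and GRIN3B, at over 60%, lie above 1. GRIK5, GRIN1 and GRIN2D, also at over 60%, lie at 0.25, 0.22 and 0.04, and GRM4, at 60.0%, lies at -0.35.

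Genes that work with these receptors were taken from 9 lists of 115 genes, of which 83 were tested. Of these, 29 were higher, 34 were lower and 20 did not pass the test, and their median log2 fold change was 0.01. The 63 calls are 75.9% of the 83 genes, near the 72.4% of all genes. Among all genes 36.5% were higher and 35.9% lower. With the GC and length correction, 24 were higher and 38 lower. The lower genes of the auxiliary subunit, editing enzyme and Cys-loop lists include some that passed the filter only through WT and so had to be lower. Among the 74 partner genes at the filter's level in every library, 25 were higher and 30 lower without the correction. Among glutamate receptor partners, 14 auxiliary subunit genes were tested, 6 higher and 7 lower, or 4 higher and 9 lower with the correction. NETO1, a kainate and NMDA receptor partner, had 103, 123 and 125 counts in WT and 17, 7 and 10 in GFI1-KO, where only 1 library reached the filter's level. The normalized counts of NETO1 were 124 ± 16.5 and 10.8 ± 4.92 (SD, n = 3). Of 17 scaffold genes tested, 8 were higher and 5 lower, but 7 were higher and 8 lower with the correction. The postsynaptic scaffolds SHANK3, SHANK1 and HOMER3 had log2 fold changes of 1.33, 1.18 and 1.13 (adjusted p = 3.57e-17, 1.19e-13 and 2.38e-07, edgeR), which were 0.70, 0.57 and 0.56 with the correction. Their transcripts hold 67.4%, 66.2% and 60.5% GC.

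Of 8 delta receptor ligands and presynaptic partners tested, 2 were higher and 3 lower, or 3 higher and 4 lower with the correction. The 2 that were higher without the correction were the secreted proteins C1QL1 and C1QL4, with log2 fold changes of 1.10 and 1.02 (adjusted p = 4.78e-11 and 3.02e-12, edgeR). These shrank to 0.20 and 0.24 with the correction. Of 9 glutamate supply and uptake genes tested, 7 were lower and 1 higher, against 35.9% lower and 36.5% higher among all genes, and the median over the 9 was -0.74 on the log2 scale. With the GC and length correction 6 were lower and 1 higher. The transporters of the plasma membrane SLC1A6 and SLC1A2 had log2 fold changes of -2.18 and -1.20, and the vesicular transporter SLC17A7 -1.80 (adjusted p = 4.64e-11, 3.54e-06 and 2.01e-14, edgeR). With the GC and length correction the log2 fold change of SLC1A2 was -0.71. SLC17A7 had 704, 621 and 506 counts in WT and 168, 218 and 203 in GFI1-KO.

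Of 12 tested genes for GABA receptor scaffolds and trafficking, 8 were higher and 3 lower, against 36.5% higher and 35.9% lower among all genes. None of them passed a log2 fold change of 1 in size at a mean of 50 normalized counts. With the GC and length correction 7 of the 12 were higher and 2 lower. Of 6 tested genes for GABA synthesis, transport and breakdown, 1 was higher and 2 were lower, and of the 2 chloride cotransporter genes 1 was lower, or 0 with the correction. Of the 3 editing enzyme genes, 2 were called lower. ADARB2, a family member without known editing activity, had 131, 99 and 116 counts in WT and 5, 6 and 5 in GFI1-KO. It passed the filter only through WT, so no test is given for ADARB2, with normalized counts of 122 ± 12.3 and 5.05 ± 0.55 (SD, n = 3). ADARB1, the enzyme that edits the GRIA2 transcript, had a log2 fold change of -0.17 (edgeR, adjusted p = 0.0377), and ADARB1 had -0.27 with the correction. Of 12 other Cys-loop receptor genes tested, 3 were higher and 4 lower, or 1 higher and 5 lower with the correction. The glycine receptor beta subunit gene GLRB had 235, 207 and 247 counts in WT and 120, 105 and 98 in GFI1-KO. It fell by 1.25 on the log2 scale (edgeR, adjusted p = 2.99e-10), and with the correction GLRB fell by 0.75.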

How the data were processed

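RNA-Seq of 3 WT and 3 GFI1-KO libraries of H1155 cells was analyzed, grouped by the genotype in the labels. The authors deposited unnormalized counts per gene with gene lengths and positions. According to the methods, the authors selected poly-adenylated RNA, sequenced it on a NovaSeq instrument, aligned reads to GRCh38/hg38 with Hisat2 and counted with featureCounts, whereas the submitters' processing notes name Bowtie2 and HTSeq with hg38. The annotation, strand setting and rule for multi-mapping reads are not given in the sources used here. Library totals were 14882914 to 17692882 counts, and floors and intervals cover counting error only.

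Counts were tested with edgeR 4.0.16 in R 4.3.3 (TMM factors, filterByExpr, quasi-likelihood F test, Benjamini-Hochberg adjustment over 17514 genes, adjusted p of at most 0.05, no fold minimum). An exact permutation test of 3 against 3 libraries cannot go below p = 0.1 and was not used. For normalized counts, each count was scaled to the mean of the TMM effective library sizes, which FPKM also uses, with the deposited gene length. GC content is that of the longest GENCODE release 44 transcript, and the GC and length correction uses natural splines with 5 degrees of freedom per library. Overlaps of exons and shared words of 50 bases were counted in the same release. The code was checked on simulated data. The alternatives were DESeq2 1.42.0, limma-voom 3.58.1, other normalizations and filters, the replicate number as a block, the correction and leaving out each library. Same-numbered libraries did not deviate together, which does not show whether they were prepared as pairs. The study's methods name no pairing, and the main test used none.

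The receptor genes and the lists were chosen with earlier results of these data known. Of the 44 receptor genes, 39 are named, and the others, like 1 marker gene, enter the counts and sums but are not reported here. Of the partner genes, those with a mean of at least 50 normalized counts that passed the test with a log2 fold change of 1 or more in size, at most 4 per list, are named, and ADARB1, COL1A2 and COL3A1 were named after their values were seen.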

Additional observations from a re-analysis of the deposited data

How the results depend on the processing

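The 18 called receptor genes (7 higher, 11 lower) and the 29 higher and 34 lower partner genes stayed within 1.5 times these counts under every alternative run. Leaving out 1 library at a time gave 17 to 18 called receptor genes, 6 to 7 higher and 11 lower, and 28 to 31 higher and 32 to 35 lower partner genes. Counted only among genes at the filter's level in every library, a choice made after seeing the data, there were 16 called receptor genes (7 higher, 9 lower) and 25 higher and 30 lower partner genes. Among the receptor genes named and tested, signs changed only for those that did not pass the test without correction. With the GC and length correction, without and with the block, the log2 fold change was -0.386 and -0.383 for GRIK5, -0.383 and -0.385 for GRIN1, and -0.667 and -0.664 for GRIN2D. Leaving out 1 library gave -0.036 to 0.183 for GRIN2D (negative without replicate 1 or 3 of WT) and -0.051 to 0.089 for GABRQ (negative without replicate 3 of WT). The cause was not tested. GRID1 lost its call in 5 alternatives. With the replicate number as a block, 18 receptor genes were called, and no receptor gene changed its call. Deviations from the group means of same-numbered libraries correlated at -0.00617, 0.0134 and 0.0213, and those of other pairs at -0.0502 to 0.0439. With 14882914 to 17692882 counts per library, 19 receptor genes had too few counts to be tested, and a filter of 10 counts in every sample gave no value for GABRB2.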
